A study of Mus musculus with 6 samples.

Results

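Genes of the translation initiation factors (eIF) and elongation factors (eEF) were examined in CD4+ T cells from the spleens of colitic mice. The genes were chosen by name. All symbols of the deposited count table that begin with Eif1 to Eif6 or with Eef1 or Eef2 were taken, and pseudogene symbols carrying -ps and Eif2ak2 were left out. This gave 68 of the 54532 genes listed, and 64 of the 68 passed the filter on low counts and were tested. Poly(A)-selected RNA-seq libraries were made from 3 biological replicates of mice given Akkermansia muciniphila daily, a mucin-degrading gut bacterium, and 3 of mice given PBS. The mice were wild type C57BL/6J mice that received dextran sulfate sodium (DSS) in drinking water, so that colitis was common to both groups and no group without it was analysed here. The labels do not say whether a replicate is 1 mouse or a pool, so p-values measure the spread between these libraries. The library descriptions name CD4, CD5 and CD6 for the libraries numbered 1, 2 and 3 of both groups, whereas the cell type entry names CD4 for all 6.

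Translation of an mRNA begins when a small ribosomal subunit carrying eIF1, eIF1A, eIF3, eIF5 and the initiator tRNA bound to eIF2 is brought to the capped end by eIF4F, the complex of the cap-binding protein eIF4E, the helicase eIF4A and the scaffold eIF4G. The subunit then moves along the leader until eIF1, eIF1A and eIF5 permit recognition of a start codon, after which eIF5B joins the large subunit and eEF1 and eEF2 drive elongation. The exchange factor eIF2B recycles eIF2, kinases that phosphorylate eIF2 slow initiation under stress, and the 4E-BP proteins withhold eIF4E from eIF4G when the kinase mTORC1 is inactive. T cells increase this machinery when they are activated.

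The libraries held 15032257 to 16677923 counts, of which the factor genes took 2.71% to 2.91% with Akkermansia and 2.97% to 3.10% with PBS. Eef1a1 alone took 1.05% to 1.16% with Akkermansia and 1.16% to 1.326% with PBS. The 8 T cell markers summed to 3683 ± 118 CPM with Akkermansia, against 3677 ± 119 CPM with PBS (mean ± SD of 3 libraries each), where CPM is the count scaled to the size of the library. Of these 8, Cd4, Cd5 and Cd3e were higher, Cd28 was lower and 4 were not called. Markers of other cells moved with the groups. All 11 B cell markers were higher with Akkermansia, with a summed level of 441 to 595 CPM against 200 to 228 CPM with PBS. The 2 CD8 T cell markers summed to 61.3 to 93.4 CPM with Akkermansia and 19.1 to 20.2 CPM with PBS, and 6 of 8 NK cell markers were higher (61.9 to 74.3 CPM against 32.3 to 40.2 CPM). Of 5 tested neutrophil markers all had a log2 fold change above 0 and 1 was called, and the list summed to 72.7 to 162 CPM with Akkermansia, against 12.7 to 51.4 CPM with PBS. Of 4 tested plasma cell markers all lay above 0 and none was called, while the list summed to 489 to 651 CPM with Akkermansia, against 104 to 238 CPM with PBS. Dendritic cell markers, 3 of 5 called higher, summed to 32.3 to 37.8 CPM with Akkermansia and 13.6 to 20.5 CPM with PBS. Of 7 monocyte and macrophage markers 1 was higher (483 to 524 CPM with Akkermansia, against 387 to 471 CPM with PBS in sum). All 6 erythroid markers lay below 0 and 1 was called lower, with sums of 214 to 373 CPM with Akkermansia and 424 to 978 CPM with PBS. All 4 platelet markers lay below 0 and 1 was called lower, and their sums of 8.02 to 17.4 CPM with Akkermansia and 14.9 to 20.5 CPM with PBS overlapped. The part of these cells in the results that follow was not tested, and in bulk RNA fewer cells of a type and less RNA per cell cannot be told apart.

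Translation factor transcripts were lower with Akkermansia in 13 of 64 tested genes and higher in 1 gene. The 13 genes were Eif1, Eif1a, Eif5, Eif2s2, Eif2s3y, Eif2a, Eif3e, Eif3j1, Eif3m, Eif4e, Eif4a3, Eif5a2 and Eef1b2, and the higher gene was Eif4ebp2. A call required an adjusted p under 0.05 in edgeR's quasi-likelihood test, adjusted by Benjamini-Hochberg over all 15138 genes tested. Over all genes tested 8.28% were called lower and 7.32% higher, against 20.3% and 1.56% of the tested factor genes. The groups did not overlap in 26 factor genes that were lower and 4 that were higher (46.9% of 64), against 17.8% lower and 17.1% higher, or 34.9% in either direction, over all genes tested. The median log2 fold change (Akkermansia over PBS) was -0.06 for the factor genes and -0.01 for all genes tested, and 39 of the 64 (60.9%) lay below 0, against 51% of all genes tested. The median absolute log2 fold change was 0.40 for the 14 called factor genes and 0.51 for all called genes. Without Akkermansia 1, Akkermansia 2, Akkermansia 3 or PBS 1, the lower calls numbered 6, 7, 8 and 8, and they numbered 8 on the scale of log2(FPKM + 1), where FPKM is scaled for transcript length and library size. Lower calls over all genes tested also fell without these libraries, from 1253 to 755, 623, 638 and 794 (of 15494 to 15702 genes). On log2(FPKM + 1) they fell to 850 of 15138. Eif1a, Eif5, Eif2s2, Eif2s3y, Eif3j1 and Eif2a stayed lower and Eif4ebp2 stayed higher past the threshold in all 16 alternative fits.

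**Figure D1:**
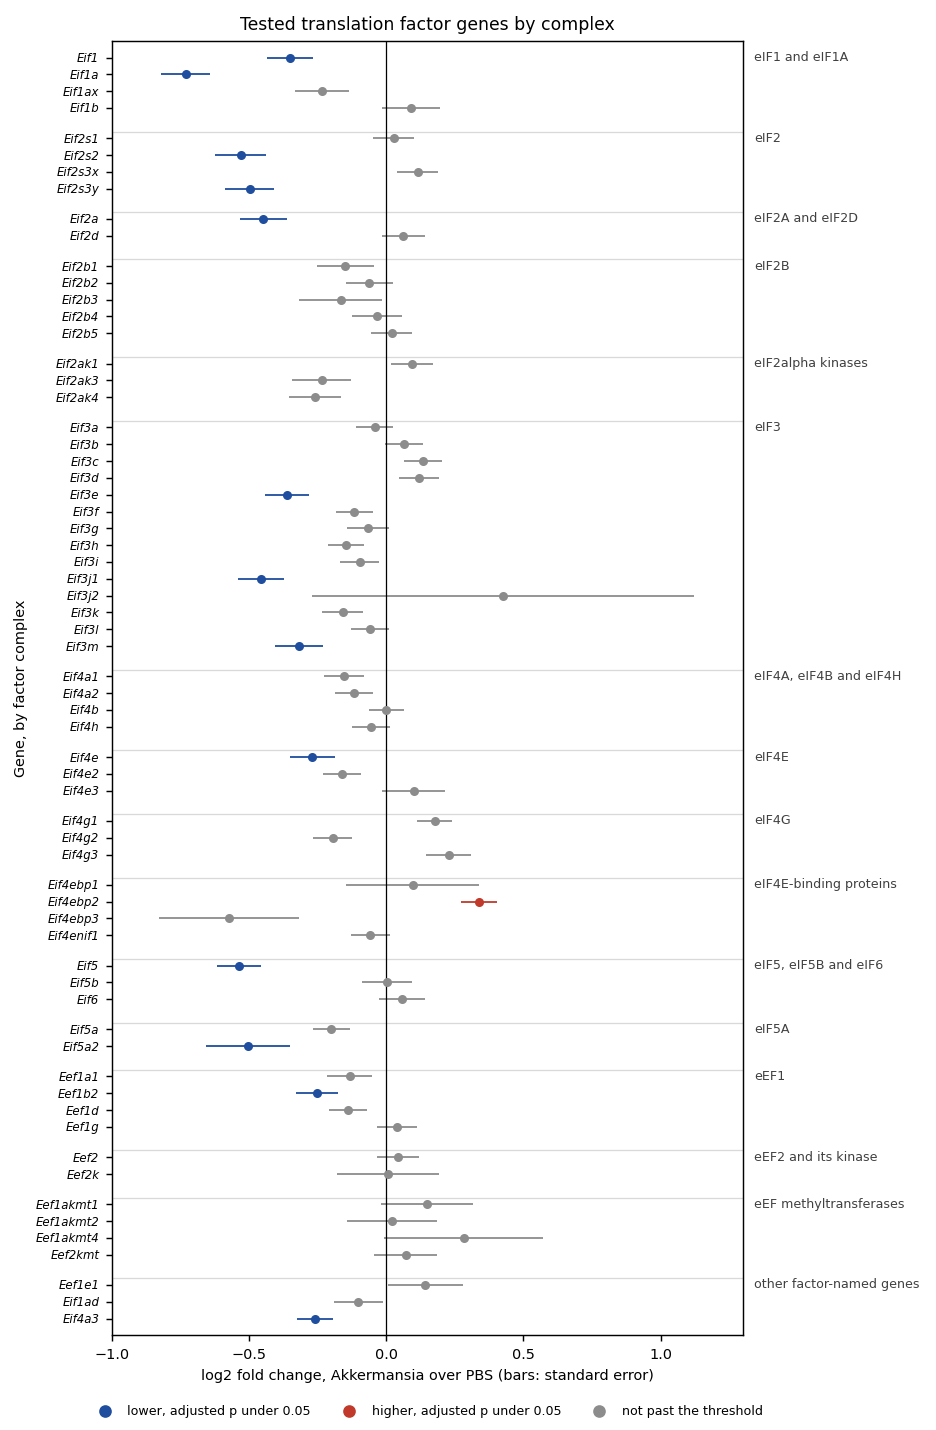
Log2 fold change (Akkermansia over PBS, bars are standard errors derived from the F statistic of the edgeR test) of the 64 tested translation factor genes, grouped by complex. The 13 lower genes are spread over 9 of the groups shown, from -0.73 for Eif1a to -0.25 for Eef1b2, and Eif4ebp2 stands alone as higher (0.34).

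**Figure D2:**
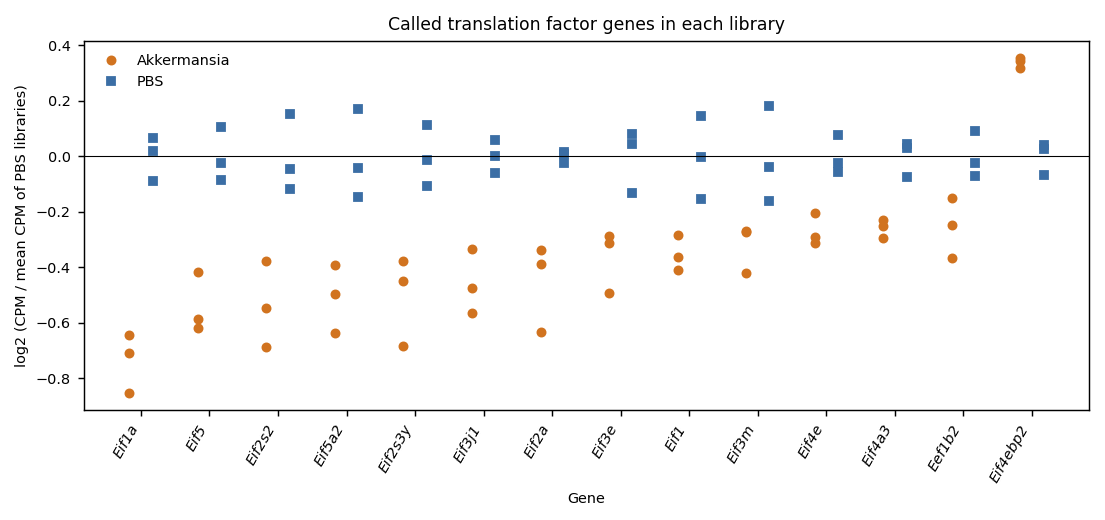
CPM of each of the 14 called genes in every library, as log2 of its ratio to the mean of the 3 PBS libraries, with Akkermansia libraries as circles and PBS libraries as squares. In all 14 genes every Akkermansia library lies on 1 side of every PBS library. The genes were called on these same libraries, and the groups did not overlap in 34.9% of all genes tested.

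A short sequence, GGAAGT, was chosen after the sequences around the gene starts had been seen, and most of the lower genes held it. That choice could raise its share among them, and the share got no test. RefSeq windows of 250 bases before to 50 bases after each annotated start (build GRCm38.p6) were available for 50 of the 64 tested genes, and for 11 of the 13 lower genes (not for Eif1a and Eif3e). The letters GGAAGT, the core of the sequence bound by ETS family transcription factors, were found on either strand in the windows of 10 of these 11 genes (90.9%), against 16 of the 38 factor genes that were tested but not called (42.1%) and 33.1% of 10086 tested genes with a window. Of all 32851 RefSeq windows 23.8% held it. Eif1 and the higher gene Eif4ebp2 had none. The matches of 9 of these genes are given with 12 bases on each side, because this is the motif that most lower genes held, and capitals mark the match (ACTTCC where it lies on the opposite strand). That of Eif2s2 lies 41 bases after the start.
Eif5 (chr12:111538051-111538080, plus strand): agtggagccccaGGAAGTggagggcggaga
Eif2a (chr3:58525790-58525819, plus strand): accccgccccgcGGAAGTgtggactccgcc
Eif2s3y (chrY:1010583-1010612, plus strand): gaggccacagccACTTCCttctttcgtgag
Eif3j1 (chr2:122028380-122028409, plus strand): tcacgcgtgcgcACTTCCtttctcttctcg
Eif3m (chr2:105017115-105017144, minus strand): ggcccgcggggaGGAAGTagtactgtgggc
Eif4a3 (chr11:119300064-119300093, minus strand): ctgcggcgcgtcACTTCCtcccgaccgggc
Eif4e (chr3:138527115-138527144, plus strand): aaaaaagactccACTTCCcagaagcctctc
Eif5a2, match nearer the start (chr3:28781231-28781260, plus strand): ggggcctatcccGGAAGTgtggtcgcggcg
Eif5a2, match farther from the start (chr3:28781103-28781132, plus strand): gctctgcacgccGGAAGTgcactaatccgc
Eef1b2 (chr1:63176822-63176851, plus strand): tgcagttccgccGGAAGTagccgaggcctt

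These matches began 188 bases before the start in Eif3j1, 162 and 34 before in Eif5a2, 141 before in Eif4e, 105 before in Eif3m, 38 before in Eif5 and Eif4a3 and 19 before in Eif2a. They began at base 1 of the transcript in Eif2s3y and at base 4 in Eef1b2. Of 3 other motifs searched on both strands, CACGTG (the E-box bound by MYC) was in 2 of the 11 lower genes, Eif4e and Eif5a2, against 28.9% of the uncalled factor genes and 11.7% of tested genes with a window. CCAAT was in 4 of 11, against 34.2% and 42.7%, and TGACGTCA (the cAMP response element) in none, against 2.63% and 3.54%. Matches of different motifs did not overlap in the factor genes. GGAAGT was chosen after the start windows had been seen and got no test, a match is not a bound site, and genes with several annotated starts have more sequence searched (1.09 windows per lower gene, 1.37 per uncalled factor gene).

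Among the factors that govern start codon recognition, Eif1a, Eif5 and Eif1 were lower. Eif1a encodes a form of eIF1A, which keeps the scanning subunit open and positions the initiator tRNA. It had 34.4, 31.1 and 36.0 CPM with Akkermansia, against 58.8, 52.9 and 56.9 CPM with PBS (libraries 1, 2 and 3). All Akkermansia libraries were well below the lowest PBS library, and the log2 fold change of -0.73 ± 0.09 (SE, adjusted p = 0.000264) was the largest fall of any called factor gene. Eif5, the GTPase-activating partner of eIF2, had 535, 547 and 616 CPM with Akkermansia and 809, 774 and 883 CPM with PBS. Its groups did not overlap, and its log2 fold change was -0.54 ± 0.08 (adjusted p = 0.000877). Eif1, which prevents pairing with near-cognate codons, had 577, 597 and 630 CPM with Akkermansia and 764, 688 and 848 CPM with PBS. PBS 2 lay nearest to the Akkermansia libraries, and the log2 fold change was -0.35 ± 0.08 (adjusted p = 0.0130). The call of Eif1 was lost without Akkermansia 1 (adjusted p = 0.0641), without Akkermansia 2 (0.0664) and on both FPKM scales (0.0543 with a pseudocount of 1 and 0.0530 with 0.1).

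Relatives of these genes and the subunit joining factors did not pass the test. Eif1ax, the X-linked eIF1A gene, averaged 42.5 ± 3.88 CPM with Akkermansia and 49.9 ± 4.91 CPM with PBS (mean ± SD, 3 libraries each, log2 fold change -0.23 ± 0.10, adjusted p = 0.132). Eif1b, a close relative of Eif1, had a log2 fold change of 0.09 ± 0.10. Eif5b, the GTPase that joins the subunits, had 0.003 ± 0.09, and Eif6, which keeps free large subunits from joining, had 0.06 ± 0.08. Per length, Eif1 was the most abundant of these with 287 ± 13.8 FPKM with Akkermansia and 363 ± 35.7 FPKM with PBS, followed by Eif5 with 83.1 ± 6.76 FPKM with Akkermansia and 120 ± 7.56 FPKM with PBS.

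Within eIF2, the carrier of the initiator tRNA, 2 of 4 subunit genes were lower. Eif2s2, which encodes the beta subunit that contacts eIF5, had 73.0, 90.5 and 80.6 CPM with Akkermansia and 114, 130 and 108 CPM with PBS. The groups were apart (log2 fold change -0.53 ± 0.09, adjusted p = 0.00260). Eif2s3y, the Y-linked gene of the gamma subunit, had 79.9, 94.1 and 99.0 CPM with Akkermansia and 139, 127 and 119 CPM with PBS (log2 fold change -0.50 ± 0.09, adjusted p = 0.00279). Its X-linked counterpart Eif2s3x did not pass, at 98.7, 115 and 111 CPM with Akkermansia and 95.2, 104 and 101 CPM with PBS (0.11 ± 0.08, adjusted p = 0.347). Eif2s1, the alpha subunit that the stress kinases phosphorylate, had 68.7, 73.1 and 73.1 CPM with Akkermansia and 69.7, 74.6 and 66.7 CPM with PBS (0.03 ± 0.07). Eif2a, which despite its symbol is a separate factor that can deliver initiator tRNA without eIF2, had 47.9, 56.8 and 58.8 CPM with Akkermansia and a narrow 75.1, 74.8 and 73.1 CPM with PBS (-0.45 ± 0.09, adjusted p = 0.00430). Eif2d, another alternative tRNA delivery factor, had 0.06 ± 0.08.

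No eIF2B gene and no eIF2 kinase gene passed the test. The 5 eIF2B genes ranged from -0.17 (Eif2b3) to 0.02 (Eif2b5, the catalytic subunit), and all 5 had overlapping groups. Eif2b2, the most abundant of them per length, had 46.2, 52.9 and 46.8 CPM with Akkermansia and 50.1, 48.4 and 53.7 CPM with PBS (-0.06 ± 0.09, adjusted p = 0.686). Eif2ak1, the haem-regulated kinase HRI, had 62.8, 62.5 and 66.2 CPM with Akkermansia and 58.6, 57.8 and 63.2 CPM with PBS (0.09 ± 0.08, adjusted p = 0.450). Eif2ak4, the amino acid sensor GCN2, averaged 29.4 ± 1.29 CPM with Akkermansia and 35.2 ± 2.36 CPM with PBS (-0.26 ± 0.09, adjusted p = 0.0816), with groups that did not overlap. Eif2ak3, the endoplasmic reticulum kinase PERK, had 59.7, 56.1 and 59.6 CPM with Akkermansia and 69.5, 57.0 and 80.0 CPM with PBS (-0.24 ± 0.11, adjusted p = 0.163). PBS 2 was within 1 CPM of an Akkermansia library there, and in the fit without PBS 2 Eif2ak3 was the 1 kinase called. The fourth kinase gene, Eif2ak2 (the double-stranded RNA sensor PKR, not counted among the 68), had 42.9, 53.7 and 46.4 CPM with Akkermansia and 58.5, 104 and 38.8 CPM with PBS, and PBS 2 was the highest library (-0.49 ± 0.41, adjusted p = 0.509).

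Of the 14 genes of the large scaffold complex eIF3, 3 were lower and none was higher. Eif3j1, a gene of the loosely bound subunit eIF3j that sits near the decoding site, had 45.2, 48.1 and 53.1 CPM with Akkermansia and 69.7, 64.2 and 67.0 CPM with PBS (-0.46 ± 0.08, adjusted p = 0.00326). Eif3e had 264, 299 and 305 CPM with Akkermansia and 383, 393 and 339 CPM with PBS (-0.36 ± 0.08, adjusted p = 0.00988). It lost its call without Akkermansia 1 (0.0595). Eif3m had 125, 138 and 139 CPM with Akkermansia and 163, 190 and 150 CPM with PBS (-0.32 ± 0.09, adjusted p = 0.0273). The call of Eif3m was lost when any library other than PBS 3 was left out (adjusted p = 0.0607 to 0.131), on the FPKM scales and with a GC offset.

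The other 11 eIF3 genes ranged from -0.16 (Eif3k) to 0.43 (Eif3j2), and none was called. Eif3j2 is a near-identical copy of Eif3j1 whose reads the counting could have shared. It had 9.04, 6.14 and 3.05 CPM with Akkermansia and 4.23, 8.01 and 1.41 CPM with PBS (0.43 ± 0.70). Together the pair reached 54.9 ± 1.11 CPM with Akkermansia and 71.5 ± 2.79 CPM with PBS (mean ± SD, 3 libraries each). Whether reads moved between them was not tested. The subunit genes Eif3a, Eif3b and Eif3c had -0.04 ± 0.07, 0.07 ± 0.07 and 0.13 ± 0.07. Eif3d, which can bind caps itself, had 0.12 ± 0.07. Eif3h had -0.15 ± 0.07 and Eif3f -0.12 ± 0.07, and neither passed the threshold (adjusted p = 0.148 and 0.270). In CPM the groups of Eif3h, Eif3f and Eif3k did not overlap, with Akkermansia below PBS. Those of Eif3c were narrowly apart the other way, at 239.9, 266.8 and 256.3 CPM with Akkermansia and 234.5, 239.8 and 221.6 CPM with PBS. Per length, subunit transcripts differed widely. Eif3h had 198 ± 8.83 FPKM with Akkermansia and 218 ± 3.36 FPKM with PBS, Eif3a 85.5 ± 1.33 FPKM with Akkermansia and 87.4 ± 3.95 FPKM with PBS, and Eif3j1 8.39 ± 0.725 FPKM with Akkermansia and 11.4 ± 0.381 FPKM with PBS.

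**Figure D3:**
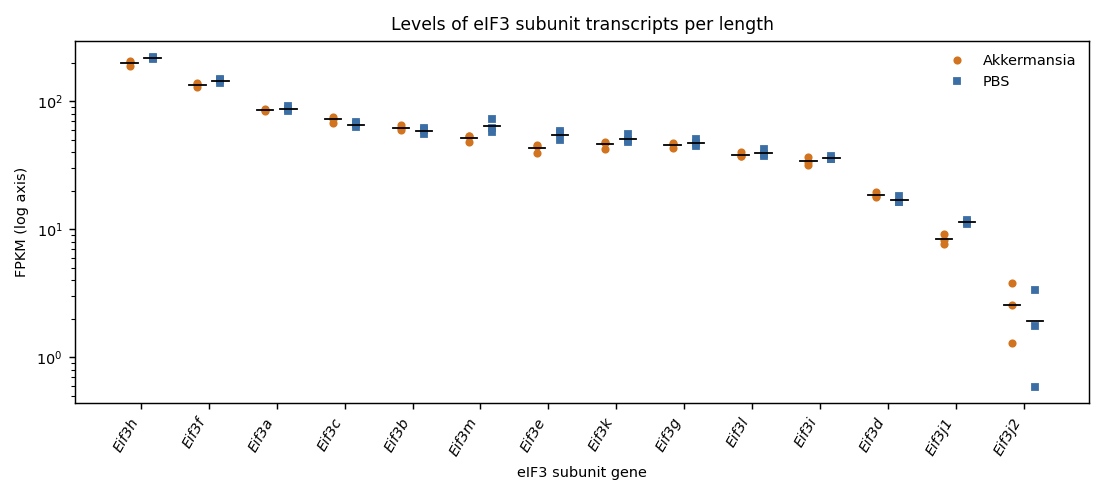
FPKM (log axis) of the 14 eIF3 subunit genes in each Akkermansia library (circles) and PBS library (squares), with group means as lines and genes ordered by mean level. Eif3h is highest at 198 and 218 FPKM and Eif3j2 lowest at 2.55 and 1.91 FPKM, and the groups are apart in Eif3m, Eif3e and Eif3j1 among the lower genes.

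Of the cap-binding complex, Eif4e was lower while its binding protein gene Eif4ebp2 was higher. Eif4ebp2, one of the 4E-BP repressors, had 495, 491 and 483 CPM with Akkermansia and 394, 370 and 398 CPM with PBS. The Akkermansia libraries lay within 13 CPM of each other and above every PBS library (0.34 ± 0.07, adjusted p = 0.00446). Eif4e had 45.9, 43.2 and 42.7 CPM with Akkermansia and 52.1, 55.9 and 51.0 CPM with PBS (-0.27 ± 0.08, adjusted p = 0.0412). This call was lost in 12 of the 16 alternatives, among them DESeq2 (0.0672), the GC offset (0.153) and each fit without 1 library apart from PBS 3 (0.0784 to 0.151). Per length, Eif4ebp2 had 84.8 ± 0.732 FPKM with Akkermansia and 66.6 ± 2.12 FPKM with PBS, and Eif4e had 7.32 ± 0.270 FPKM with Akkermansia and 8.76 ± 0.497 FPKM with PBS. Eif4ebp1, the best known 4E-BP gene, was far less abundant with 2.58 ± 0.715 FPKM with Akkermansia and 2.40 ± 0.391 FPKM with PBS (0.10 ± 0.24), and Eif4ebp3 had 3.79 ± 0.752 FPKM with Akkermansia and 5.60 ± 0.582 FPKM with PBS (-0.57 ± 0.25, adjusted p = 0.147), on 38 to 76 counts. Eif4enif1, which carries eIF4E into the nucleus, had -0.06 ± 0.07.

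The remaining cap-complex genes did not pass. The scaffold gene Eif4g1 had 504, 533 and 515 CPM with Akkermansia and 460, 455 and 459 CPM with PBS (0.18 ± 0.06, adjusted p = 0.0836), and Eif4g3 had 348, 360 and 334 CPM with Akkermansia and 286, 270 and 333 CPM with PBS (0.23 ± 0.08, adjusted p = 0.0794). Eif4g2, which encodes DAP5, a relative that lacks the eIF4E-binding site, had 1168, 1249 and 1283 CPM with Akkermansia and 1377, 1412 and 1448 CPM with PBS (-0.20 ± 0.07, adjusted p = 0.0776). In all 3 eIF4G genes the groups did not overlap, with Eif4g1 and Eif4g3 above and Eif4g2 below PBS. Eif4g3 was called without PBS 3 and with no filter on low counts. The helicase genes Eif4a1 and Eif4a2 had -0.16 ± 0.07 (adjusted p = 0.170) and -0.12 ± 0.07 (0.286). Eif4a2 had 988, 1014 and 1100 CPM with Akkermansia and 1110, 1113 and 1144 CPM with PBS, so that its groups were narrowly apart. The helicase partners Eif4b and Eif4h had -0.0005 ± 0.06 and -0.06 ± 0.07, and the cap-binding relatives Eif4e2 (4EHP, a repressor) and Eif4e3 had -0.16 ± 0.07 and 0.10 ± 0.11. The pseudogene symbol Eif4a-ps4, outside the 68, carried 913 to 1264 counts per library and was lower too (-0.25 ± 0.08, adjusted p = 0.0379), so reads of eIF4A genes may be divided between loci.

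Among elongation factor genes 1 of 4 tested eEF1 genes was lower, and neither Eef2 nor Eef2k was called. Eef1b2, which encodes the exchange factor that reloads eEF1A with GTP, had 444, 516 and 483 CPM with Akkermansia and 563, 610 and 546 CPM with PBS (-0.25 ± 0.08, adjusted p = 0.0416). It lost its call when any library other than PBS 3 was left out (adjusted p = 0.0652 to 0.191), on the FPKM scales (up to 0.106) and with the GC offset (0.0872). Eef1a1, the carrier of aminoacyl-tRNA, averaged 4481 ± 283 FPKM with Akkermansia and 4881 ± 363 FPKM with PBS (-0.13 ± 0.08, adjusted p = 0.307). Eef1d, a further exchange subunit, had -0.14 ± 0.07 and Eef1g, its structural partner, 0.04 ± 0.07. Eef2, the translocase, had 4865, 5255 and 5330 CPM with Akkermansia and 5063, 4668 and 5274 CPM with PBS. These groups overlapped, and the log2 fold change of 0.04 ± 0.08 turned to -0.06 with the GC offset and to -0.005 without PBS 2. Its inhibitory kinase gene Eef2k had 0.005 ± 0.19.

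eIF5A, which carries the amino acid hypusine and relieves stalled ribosomes, is encoded by 2 genes here. Eif5a2, the rare copy, had 9.04, 8.21 and 9.74 CPM with Akkermansia and 11.5, 14.4 and 12.4 CPM with PBS (-0.50 ± 0.15, adjusted p = 0.0417), and was not called in any fit that left out 1 library (adjusted p = 0.0562 to 0.162). The main copy Eif5a averaged 349 ± 18.2 CPM with Akkermansia and 400 ± 10.7 CPM with PBS (-0.20 ± 0.07, adjusted p = 0.0655) and became called with the GC offset, as did Eef1d. The tested methyltransferase genes that modify eEF1A and eEF2 lay between 0.02 (Eef1akmt2) and 0.28 (Eef1akmt4). Eef1akmt1, the most abundant of them per length, had 9.80, 12.2 and 10.2 CPM with Akkermansia and 9.24, 11.4 and 8.46 CPM with PBS, and its groups overlapped (0.15 ± 0.17, adjusted p = 0.603).

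The names also take in genes outside the complexes. Eif4a3, the helicase of the exon junction complex deposited on spliced mRNA, had 109, 106 and 111 CPM with Akkermansia and 133, 123 and 134 CPM with PBS (-0.26 ± 0.07, adjusted p = 0.0205), and lost its call without any Akkermansia library or PBS 1 (0.0523 to 0.110). Eef1e1, a scaffold protein of the tRNA synthetase complex, had 0.14 ± 0.14, and Eif1ad had -0.10 ± 0.09. Untested were Eif4e1b, Eef1a2 and Eif2c5 (whose name belongs to the Argonaute family), each with 0 counts in all 6 libraries, which allows up to 0.200 CPM per library (3 counts), and Eef1akmt3, which had 1 to 4 counts per library with Akkermansia and 0 to 1 with PBS.

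The counts of related genes were set against each other in 8 pairs, and in 3 of them the ratio did not overlap between the groups. The ratio of Eif2s3x to Eif2s3y counts was 1.23, 1.22 and 1.12 with Akkermansia and 0.686, 0.813 and 0.845 with PBS. The 2 genes summed to 199 ± 17.7 CPM with Akkermansia and 228 ± 7.17 CPM with PBS (mean ± SD of 3 libraries each). The ratio of Eif1ax to Eif1a was 1.12, 1.38 and 1.28 with Akkermansia and 0.811, 1.05 and 0.818 with PBS, and together they reached 76.3 ± 5.06 CPM with Akkermansia, against 106 ± 2.49 CPM with PBS. The ratio of Eif4g1 to Eif4g2 was 0.432, 0.427 and 0.402 with Akkermansia and 0.334, 0.322 and 0.317 with PBS. Each of these 3 had a two-sided exact permutation p of 0.1, the smallest that 3 against 3 libraries allow (0.267 after adjustment over the 8 pairs), so this test could not pass the threshold. The ratios of Eif4a1 to Eif4a2, Eif3j1 to Eif3j2, Eif4g1 to Eif4g3, Eif4e to Eif4e2 and Eif4ebp1 to Eif4ebp2 had overlapping groups (exact permutation p = 0.3 to 0.6). Reads shared between such copies could be assigned to either by the counting.

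**Figure D4:**
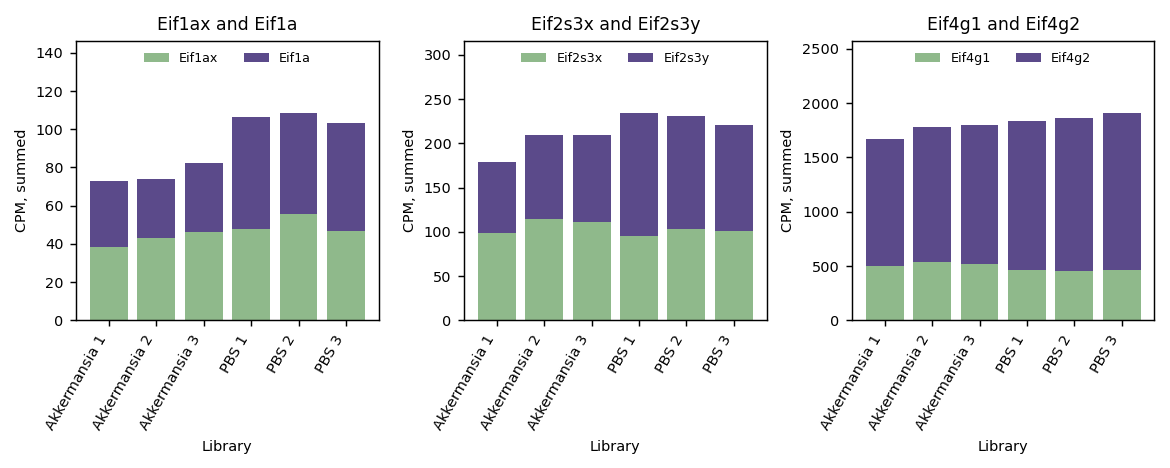
Stacked CPM of 3 pairs of related genes in each library, Akkermansia libraries at the left. In the pair Eif1ax and Eif1a the sum is lower in every Akkermansia library, at 72.8 to 82.1 CPM against 103 to 108 CPM with PBS, and in the pair Eif2s3x and Eif2s3y it is the Y-linked part that is smaller.

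The lower factor genes had transcripts poor in G and C. Their median GC content was 42.1%, against 50.9% in the 50 uncalled factor genes and 49.6% in all tested genes with a value, and Eif4ebp2 had 52.4%. Fold changes of all genes followed GC content in these libraries. In genes between 40% and 45% GC the median log2 fold change was -0.10 and 13.3% were lower, whereas at 55% and above the median was 0.10 and 4.22% were lower. Of 16 factor genes between 40% and 45% GC 7 were lower, and of 24 between 50% and 55% 2 were lower. With an offset that removed each library's trend on GC content, 11 factor genes were lower and 1 higher, 10 of the 12 being genes called without it. Over all 15125 genes tested in that fit 1213 were lower and 1025 higher. Eif3m, Eif4e, Eif5a2 and Eef1b2 were no longer called (adjusted p = 0.0590, 0.153, 0.0806 and 0.0872), and Eif1a, Eif5 and Eif2s2 had log2 fold changes of -0.64, -0.45 and -0.44. ATTTA, the core of AU-rich decay elements, occurred at a median of 2.21 per kilobase of 3′ untranslated region in the 12 lower genes with a region of at least 100 bases, against 1.21 in 46 uncalled factor genes and 1.31 in all 11284 tested genes with such a region. The motif holds only A and T, and whether these 3 medians follow base composition was not tested.

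**Figure D5:**
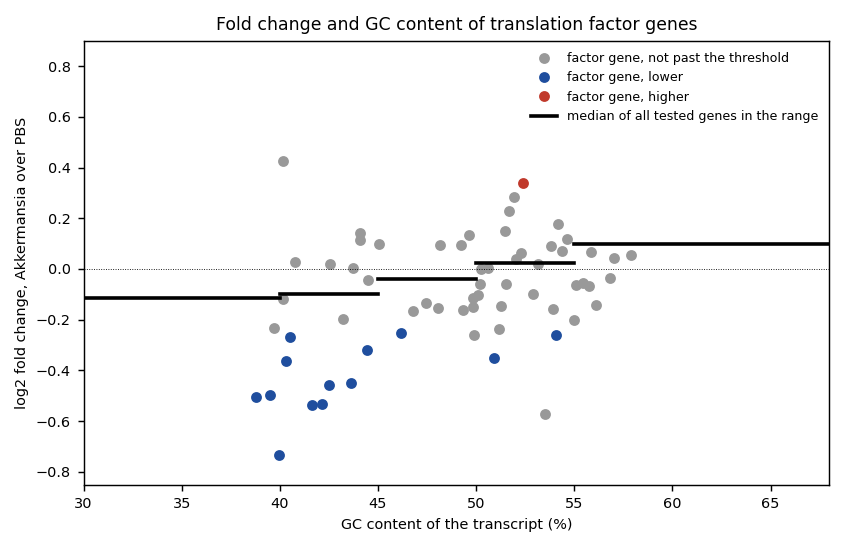
Log2 fold change (Akkermansia over PBS) against the GC content of the transcript for the 64 tested factor genes, with the median of all tested genes in 5 ranges of GC content as black lines. The black lines climb from -0.12 below 40% to 0.10 above 55%, and 11 of the 13 lower factor genes lie at 38.8% to 46.2% GC.

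Other genes of the translation pathway are given from lists. Calls in all these lists stand beside 8.28% of all genes tested called lower and 7.32% called higher. Of 10 tested genes of termination, recycling and rescue 2 were lower and 1 higher. Etf1, the release factor eRF1, averaged 146 ± 0.491 CPM with Akkermansia and 213 ± 13.6 CPM with PBS (-0.55 ± 0.07, adjusted p = 0.000308), Hbs1l, a ribosome rescue GTPase, had -0.29 ± 0.08 and Gtpbp2, another rescue GTPase, 0.26 ± 0.08. Hbs1l lost its call without Akkermansia 2, Akkermansia 3 or PBS 3 (adjusted p up to 0.120), and Gtpbp2 without any library other than PBS 3 (up to 0.172). Of 8 initiation helicases and 4EHP partners 2 were lower, the helicase pair Ddx3x (697 ± 37.8 CPM with Akkermansia and 945 ± 83.4 CPM with PBS, -0.44 ± 0.08, adjusted p = 0.00320) and Ddx3y (-0.47 ± 0.08, adjusted p = 0.00187), one X-linked and the other Y-linked. Of 7 genes of poly(A)-binding proteins and their partners Paip2b and Larp4 were lower (-0.37 ± 0.10 and -0.30 ± 0.08), and both calls were lost on leaving out Akkermansia 1 or 2 or PBS 1 or 3 (largest adjusted p 0.103 and 0.138), that of Paip2b also on leaving out Akkermansia 3.

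In the integrated stress response list 2 of 9 tested genes were lower and 1 higher. Beside genes downstream of the eIF2 kinases, it holds the kinase gene Eif2ak2 and Gcn1l1. Atf4, its transcription factor, averaged 286 ± 22.6 CPM with Akkermansia and 379 ± 24.1 CPM with PBS (-0.40 ± 0.08, adjusted p = 0.00442), and Ppp1r15a, the phosphatase subunit GADD34 that restores eIF2, had 644 ± 67.2 CPM with Akkermansia and 849 ± 100.1 CPM with PBS (-0.40 ± 0.10, adjusted p = 0.0193). Its call was lost on leaving out Akkermansia 1 or 2 or PBS 1 or 3 (largest adjusted p 0.0812). Gcn1l1, the activator of GCN2, was higher (0.30 ± 0.08, adjusted p = 0.0254), but not with the GC offset (0.130) or without Akkermansia 2, Akkermansia 3 or PBS 1 (up to 0.135). Of 16 tested mTORC1, MNK and MYC regulators Sesn2, an inhibitor of mTORC1, was lower (-0.77 ± 0.19, adjusted p = 0.0200) and Rptor, the substrate-binding subunit of mTORC1, was higher (0.27 ± 0.08, adjusted p = 0.0437). Sesn2 lost its call on leaving out Akkermansia 2 or 3 or PBS 1 or 3 (largest adjusted p 0.0916) and Rptor without any library other than PBS 1 (up to 0.178), and the number of calls ran from 0 to 6 over the alternatives. Mtor and Myc did not pass (0.23 ± 0.09 and 0.14 ± 0.08, adjusted p = 0.0958 and 0.267).

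Among the nearest gene families, 10 of 79 cytosolic ribosomal protein genes were lower, a share of 12.7% against 8.28% over all genes tested. None was higher. Of the 79, 78 lay below 0, against 51% of all genes tested, and the median was -0.20. The number of calls ranged from 2 without Akkermansia 1 or Akkermansia 3 to 27 with no filter on low counts. Rps27 and Rpl30 had -0.46 ± 0.09 and -0.37 ± 0.08 (adjusted p = 0.00675 and 0.00787), and Rps15a and Rpl39 had -0.35 ± 0.08 and -0.48 ± 0.11 (0.0103 and 0.0132). Of 22 cytosolic aminoacyl-tRNA synthetase genes and cofactors 3 were lower, led by Vars, the valyl-tRNA synthetase (255 ± 17.3 CPM with Akkermansia and 350 ± 27.6 CPM with PBS, -0.46 ± 0.08, adjusted p = 0.00229). The asparaginyl- and arginyl-tRNA synthetase genes Nars and Rars had -0.27 ± 0.07 and -0.24 ± 0.08 (adjusted p = 0.0177 and 0.0480), and Nars lost its call without Akkermansia 1 or Akkermansia 3 (up to 0.0916) and Rars without any library (up to 0.159). Neither the 10 mitochondrial translation factor genes nor the 9 enzyme genes for hypusine and diphthamide, the modifications of eIF5A and eEF2, held a call, with medians of -0.02 and 0.09. Whether these families differ from the factor genes was not tested.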

How the data were processed

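The authors deposited raw counts per gene (whole numbers) and FPKM values, scaled by gene length and library size and given to 2 decimals. Per the submitters' processing notes reads were set against GRCm39. The aligner, counting program and annotation, and whether counting used strand, were not given in the sources used here, so reads of overlapping genes may be shared. Groups came from the treatment entries, and all libraries carry batch label 1. The series design calls the libraries biological replicates. Counts were filtered with filterByExpr (minimum count 10, minimum total 15), scaled by TMM and fitted in edgeR 4.0.16 (R 4.3.3) with its quasi-likelihood test (robust settings), all 6 libraries and no covariate. Standard errors of log2 fold changes were derived from that test, as the absolute log2 fold change over the square root of its F statistic. CPM are counts over TMM-scaled library sizes, and 3 counts, the limit used for a count of 0, equal 0.181 to 0.200 CPM (counting error only). The procedure was tested on simulated counts. The genes and lists were chosen with earlier results of these data known. Genes given per library were all called factor genes and, in complexes with none, the gene highest in FPKM. From each pathway list up to 4 called genes with the smallest p were to be named, plus Myc, Mtor, Eif2ak2 and Atf4; other genes named were chosen after their values were seen. Of 173 pathway list entries 173 were found, 2 of them under an older symbol. GC content and untranslated regions came from GENCODE M21, whose older build gave no positions; start windows came from RefSeq on GRCm38.p6, also older than the build of the counts. Alternatives were DESeq2 1.42.0, limma-voom (limma 3.58.1), RLE factors, library totals, no filter, 1 CPM in 3 libraries, leaving out each library, a block for replicate number, limma-trend on log2(FPKM) with a pseudocount of 1 or 0.1, and a GC offset added after the data were seen. Counts differed between replicates by 4.25 to 5.77 times the sampling variance with Akkermansia and 13.2 to 17.8 times with PBS. No pair of replicates therefore differed by sampling alone. The spread does not show whether replicates are separate mice or pools.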

Additional observations from a re-analysis of the deposited data

How the results depend on the processing

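Of 14 called factor genes 7 kept direction and call in all 16 alternatives. The number of genes called over the whole table changed with the fit too. In the main fit 1253 were lower and 1108 higher. Lower calls ran from 623 without Akkermansia 2 to 1480 with no filter on low counts (28006 genes tested). Higher calls ran from 519 to 1526 in the same 2 fits. The scales of log2(FPKM + 1) and log2(FPKM + 0.1) gave 850 and 840 lower calls. On both FPKM scales 8 factor genes were called lower, with 1 call for eIF1 and eIF1A, for termination, recycling and rescue and for the integrated stress response, 3 for ribosomal proteins, and 0 for eIF4E, eIF5A, eEF1, poly(A)-binding proteins and mTORC1 regulators, and the eIF5A median was -0.26 on log2(FPKM + 1). With no filter on low counts 2 factor genes were higher, with 0 calls for eIF4E, 1 for eIF4G, 2 for hypusine and diphthamide enzymes, 6 for mTORC1 regulators and 27 for ribosomal proteins. With DESeq2 these were 0 for eIF4E, 4 for mTORC1 regulators and 17 for ribosomal proteins. Library totals gave 0 calls for eIF4E and limma-voom 0 for eIF5A. The replicate block gave 11 lower and 1 higher factor genes, 0 calls for eIF4E and eIF5A and 1 for hypusine and diphthamide enzymes. Over all genes tested it gave 1333 lower and 1205 higher. Libraries with the same number had correlations of their deviations from group means of 0.0846, 0.0774 and 0.0303, each the highest of its library. No label states a pairing, but the library descriptions give libraries of the same number the same cell name in both groups. Whether they are paired was not tested. With the GC offset the median was -0.11 for all factor genes, -0.25 for eIF1 and eIF1A, -0.13 for eIF2B and 0.11 for eIF4G, with 0 calls for eIF4E, 1 for hypusine and diphthamide enzymes, 1 for mTORC1 regulators and 20 for ribosomal proteins, and Eef2 turned to -0.0558.

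In fits without 1 library, calls over all genes tested ran from 623 to 1413 lower and from 519 to 1287 higher. The factor genes called in these fits numbered 6 to 12 lower and 1 to 2 higher. Their median ran from -0.11 to -0.0648, that of eIF1 and eIF1A from -0.34 to -0.24, eIF2B from -0.12 to -0.0191, eIF2 kinases from -0.25 to -0.11, eIF4E-binding proteins from -0.0713 to 0.10, eIF5, eIF5B and eIF6 from -0.0646 to 0.11, methyltransferases from 0.0523 to 0.15 and other factor-named genes from -0.15 to -0.0411. Calls ran from 1 to 2 for eIF1 and eIF1A, 0 to 1 for eIF2 kinases, 1 to 3 for eIF3, 0 to 1 for eIF4E, eIF4G, eEF1, hypusine and diphthamide enzymes and other factor-named genes, and were 0 for eIF5A throughout. They ran from 1 to 2 for termination, 0 to 3 for poly(A)-binding proteins, 0 to 3 for mTORC1 regulators, 1 to 4 for the integrated stress response, 1 to 3 for synthetases and 2 to 23 for ribosomal proteins. The log2 ratio difference ran from -0.0830 to 0.0104 for Eif4a1 over Eif4a2 and from -0.14 to 0.00215 for Eif4g1 over Eif4g3, and the log2 fold change of Eef2 from -0.00454 to 0.0860. The cause of these moves was not tested. The log2 fold changes of the low-count genes Eif4ebp1, Eif4ebp3 and Eif3j2 had standard errors of 0.24, 0.25 and 0.70.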
